A study of Mus musculus with 9 samples.

Results

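Sucnr1, Mrgprb1, Adgrg3 and Ramp1 encode 3 G-protein-coupled receptors and 1 receptor partner whose signals were followed across 9 arrays of mouse bone-marrow-derived mast cells. The genes were listed by name because earlier results from these arrays showed genotype differences for them, so their levels and differences are a description and carry no test. Every probe annotated to the 4 symbols was taken, which gave 5 probes, with a pair for Adgrg3 and a single probe for each of the others. They are 4 of 16593 named genes with a probe on the array. All 5 probes passed the filter on dim probes, a detection p-value under 0.01 on at least 3 of the 9 arrays.

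The study compared mast cells of normal control, AhR-d and AhR null mice, all labelled as strain C57BL/6J, with 3 arrays per genotype. AhR is the aryl hydrocarbon receptor, a transcription factor switched on by small aromatic ligands; AhR null mice lack it, and the d allele is known for a receptor that binds ligands less tightly. Marrow cells of every genotype grew for 4 weeks in medium with 30% WEHI-3 supernatant, a source of IL-3, were purified by removing other cells with magnetic beads, and then rested for 4 h without cytokine. Each of 3 numbered batches held 1 culture of every genotype; the sources do not say whether each batch used its own animals, so the spread between replicates is a spread between culture batches.

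G-protein-coupled receptors cross the plasma membrane and, on binding a ligand, activate heterotrimeric G proteins; RGS proteins, receptor kinases and arrestins end the signal. Sucnr1 encodes the receptor for extracellular succinate, a citric acid cycle intermediate, and Ramp1 encodes a membrane partner that turns the calcitonin-receptor-like receptor Calcrl into the receptor for the neuropeptide CGRP. Mrgprb1 belongs to the Mas-related receptor cluster, whose member Mrgprb2 is the mouse mast cell receptor for basic secretagogues. Adgrg3 encodes an adhesion receptor known from granulocytes.

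The sequence before the annotated start of each gene is shown because the genes differ between genotypes of a DNA-binding receptor. The 4 sequences below are the 250 bases before the start in RefSeq, build GRCm38.p6, each 5′ to 3′ on the gene's own strand. They lie at chr3:60081619-60081868 on the plus strand for Sucnr1, chr7:48456343-48456592 on the minus strand for Mrgprb1, chr8:95017442-95017691 on the plus strand for Adgrg3 and chr1:91179572-91179821 on the plus strand for Ramp1. Capitals mark the only match to any motif searched.
Sucnr1: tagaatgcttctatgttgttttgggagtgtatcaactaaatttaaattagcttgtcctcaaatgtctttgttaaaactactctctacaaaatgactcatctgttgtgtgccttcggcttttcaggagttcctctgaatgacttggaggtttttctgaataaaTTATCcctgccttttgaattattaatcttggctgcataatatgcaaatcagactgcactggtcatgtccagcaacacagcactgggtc
Mrgprb1: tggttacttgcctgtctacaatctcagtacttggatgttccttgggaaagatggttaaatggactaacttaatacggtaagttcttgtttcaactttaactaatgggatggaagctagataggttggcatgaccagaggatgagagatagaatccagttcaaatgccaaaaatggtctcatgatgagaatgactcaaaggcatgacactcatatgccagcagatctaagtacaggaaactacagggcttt
Adgrg3: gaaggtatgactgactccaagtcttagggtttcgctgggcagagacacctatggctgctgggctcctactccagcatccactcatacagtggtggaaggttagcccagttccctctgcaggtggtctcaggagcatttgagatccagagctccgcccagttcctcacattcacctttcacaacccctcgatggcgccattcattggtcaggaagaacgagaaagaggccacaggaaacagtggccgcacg
Ramp1: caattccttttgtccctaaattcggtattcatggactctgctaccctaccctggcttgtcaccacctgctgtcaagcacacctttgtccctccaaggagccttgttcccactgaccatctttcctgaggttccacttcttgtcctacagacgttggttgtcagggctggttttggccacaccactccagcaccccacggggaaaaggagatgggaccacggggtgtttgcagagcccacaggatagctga
The AhR core motif GCGTG, read on both strands, was in none of the 4 windows and in 28.2% of 32851 RefSeq promoter windows of the same length. The palindromic E-box CACGTG, which holds no GCGTG, was in none of the 4 and in 6.02% of all windows, and the STAT-type motif TTCNNNGAA was in none and in 7.02%. A GATA-type motif, GATAA, was in the Sucnr1 window alone, on the opposite strand as TTATC from -88 to -84 bases before the start, and in 22.6% of all windows. The windows of Sucnr1 and Mrgprb1 held 38.0% and 40.4% G and C, and those of Adgrg3 and Ramp1 held 55.2% and 54.0%, where the median over all windows was 52.4%. The absence of a match says only that these letters are not in these bases.

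Across the series, 7901 to 9733 probes were detected per array and mean raw signal ran from 324 to 684.2. Ahr, the targeted gene, offers no check of the labels, because its 1 probe stayed undetected on all 9 arrays (detection p-values 0.1153 to 0.8333). The mast cell marker Fcer1a, which encodes the IgE-binding receptor chain, had a normalised log2 signal of 14.85 ± 0.30 in control cells, 14.90 ± 0.12 in AhR-d cells and 14.99 ± 0.21 in AhR null cultures (SD, n = 3). Values below are log2 signals after background correction and quantile normalisation. For Sucnr1, Mrgprb1, Adgrg3 and Ramp1 the SE of a difference comes from the 3 arrays of each genotype compared. For all other genes it comes from the limma fit to all 9 arrays.

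Sucnr1 had its lowest signal in control, a middle signal in AhR-d and its highest in AhR null cells. Its raw intensity was 136.4, 225.1 and 195.4 on the control arrays of batches 1 to 3, 767.8, 569.2 and 372.6 on the AhR-d arrays and 2691, 2516 and 2073 on the AhR null arrays. The normalised log2 signal was 5.19, 5.93 and 6.26 in control, 8.52, 8.99 and 8.79 in AhR-d, and 10.81, 10.76 and 10.81 in AhR null. The 3 genotypes did not overlap, and the AhR null arrays lay within a spread of 0.03 (SD). In control cells the probe was close to background, detected on 1 of 3 arrays, while it was detected on all 6 arrays of the other genotypes. The AhR null mean exceeded the control mean by 5.00 ± 0.32 (SE), a 32.1-fold ratio, and by 5.63, 4.83 and 4.55 within batches 1, 2 and 3. The AhR-d mean exceeded the control mean by 2.97 ± 0.34, a 7.86-fold ratio, with 3.34, 3.06 and 2.53 within batches. AhR null exceeded AhR-d by 2.03 ± 0.14, a 4.08-fold ratio, and this difference too had 1 sign in all batches, at 2.29, 1.77 and 2.02. In bulk RNA a change in the share of cells that carry a transcript and a change in its amount per cell cannot be told apart.

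Ramp1 had the same order of genotypes at smaller steps. Its log2 signal was 4.83, 6.22 and 5.83 in control, 7.02, 7.99 and 7.46 in AhR-d, and 9.14, 9.17 and 9.19 in AhR null. The normalised values of the 3 genotypes did not overlap, whereas in raw intensity control replicate 2, at 238.1, was level with AhR-d replicate 3, at 237.7. The probe was detected on 1 of 3 control arrays and on all other arrays. The AhR null mean was above control by 3.54 ± 0.42 (SE), or 11.6-fold, with 4.31, 2.95 and 3.36 within batches. The AhR-d mean was above control by 1.86 ± 0.50, or 3.64-fold, and AhR null was above AhR-d by 1.68 ± 0.28, or 3.19-fold. Both of these smaller steps kept their sign in every batch, from 1.63 to 2.20 and from 1.18 to 2.12.

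The receptors that Ramp1 is known to accompany were below detection. Calcrl, its partner in the CGRP receptor, stayed undetected on all 9 arrays, with detection p-values from 0.3659 to 0.9449. Calcr, the calcitonin receptor, was likewise undetected on all 9 with each of its 3 probes, and so were Ramp2 and Ramp3, the other members of the partner family. A probe that is not detected sets no upper limit in transcripts, so low levels of Calcrl could not be measured at this sensitivity. Of 10 genes of the RAMP and calcitonin list with a probe, Ramp1 aside, 1 was tested. It was Crcp, a component of the CGRP receptor complex that also serves RNA polymerase III, with 8.31 ± 0.20 in control cells, 8.23 ± 0.34 in AhR-d cells and 8.23 ± 0.15 in AhR null (SD, n = 3; limma adjusted p = 0.855 for AhR null against control).

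Mrgprb1 was not detected in control cells and was highest in AhR null cells. Its log2 signal was 4.90, 4.64 and 4.92 in control, 6.48, 6.13 and 6.28 in AhR-d, and 8.92, 7.34 and 9.58 in AhR null. No control array detected the probe, with detection p-values from 0.3158 to 0.7018, against 2 of 3 AhR-d arrays and all 3 AhR null arrays. The genotypes did not overlap, but the AhR null arrays spread far more (SD 1.15) than the control (0.15) or AhR-d arrays (0.18). Because the control level is only a bound, the signal was at least 5.76-fold higher in AhR null cells, taking the lowest detected signal of a control array in place of a dimmer probe value. The same step gave 1.16-fold for AhR-d cells, which is not a strict bound. AhR-d replicate 3 did not detect the probe, at 6.28 under that array's lowest detected signal of 6.40. The measured means differed by 3.79 ± 0.67 (SE) between AhR null and control, by 1.48 ± 0.14 between AhR-d and control and by 2.32 ± 0.67 between AhR null and AhR-d. Within batches the first of these was 4.02, 2.70 and 4.66 and the last 2.44, 1.21 and 3.30.

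Replicate 2 was the lowest of the AhR null arrays for Mrgprb1, and without it the AhR null minus control difference was 4.37. It was also the lowest for Mrgprb2, the secretagogue receptor gene in the same cluster, which read 13.19, 11.95 and 13.86 on the AhR null arrays. Mrgprb2 was detected on every array and averaged 12.03 ± 0.40 in control and 12.43 ± 0.41 in AhR-d cells (SD, n = 3), and its AhR null arrays, with an SD of 0.97, overlapped both. Its AhR null minus control difference of 0.97 ± 0.37 (SE) did not pass the threshold (limma adjusted p = 0.104), but it was called without AhR null replicate 2, with batch as a block, with median scaling and with the deposited values. Mrgprb3, Mrgprb4, Mrgprb5 and Mrgprb8 were not detected on any array. Of 16 Mas-related genes with a probe besides Mrgprb1, 5 were tested and 0 were called in any of the 3 comparisons by limma, with 3 at an unadjusted p under 0.05 in AhR null against control and 0 in the others. The cluster's genes are close relatives, and binding of Mrgprb2 transcripts to the Mrgprb1 probe was not tested.

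Adgrg3 had its lowest signal in AhR null cells, while AhR-d and control cells overlapped. The brighter of its probes read 9.11, 8.44 and 8.76 in control, 8.93, 8.17 and 8.88 in AhR-d, and 5.53, 5.19 and 6.71 in AhR null. The other probe read 8.60, 7.82 and 8.90 in control, 8.23, 7.73 and 8.62 in AhR-d, and 5.35, 5.20 and 6.30 in AhR null. Both probes were detected on all control and AhR-d arrays and on 1 of 3 AhR null arrays, replicate 3, and on both the AhR null arrays lay below every other array. By the brighter probe the AhR null mean was lower than control by 7.79-fold, a log2 difference of -2.96 ± 0.50 (SE), with -3.58, -3.25 and -2.05 within batches. The other probe gave -2.82 ± 0.47. Against AhR-d the AhR null difference was -2.85 ± 0.52 by the brighter and -2.58 ± 0.43 by the other probe. AhR-d and control overlapped on both probes, with differences of -0.11 ± 0.31 and -0.25 ± 0.41, and the first of these turned to 0.03 with the deposited values, 0.08 with median scaling, 0.06 without control replicate 1 and 0.14 without AhR-d replicate 2.

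**Figure D1:**
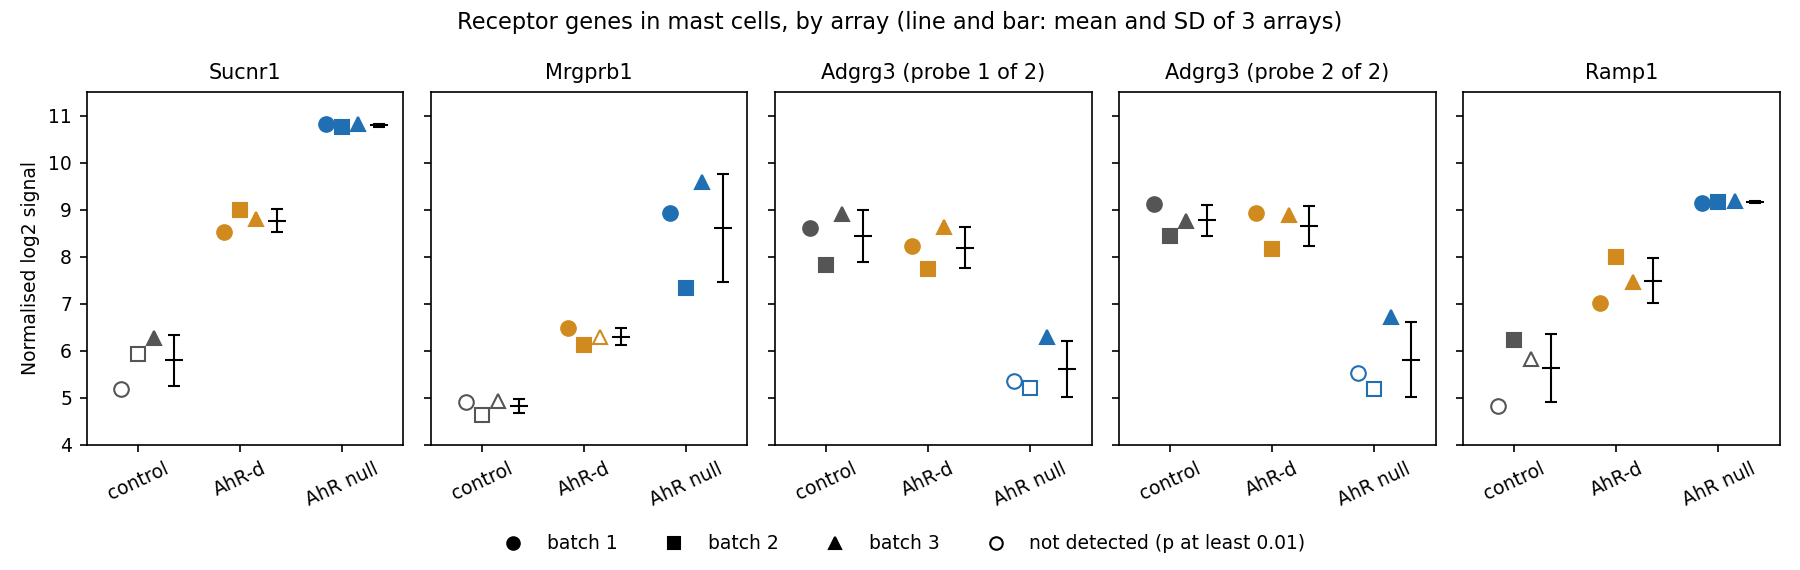
Normalised log2 signal of the 5 probes on each of the 9 arrays, by genotype, with a symbol per batch, open symbols for arrays on which the probe was not detected, and the mean and SD of 3 arrays beside each group. Sucnr1, Mrgprb1 and Ramp1 step up from control through AhR-d to AhR null (Sucnr1 means 5.79, 8.76 and 10.79), while both Adgrg3 probes are low in AhR null alone (5.81 against 8.77 and 8.66 for the brighter one, which is probe 2 in the plot).

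Set side by side, the 4 genes showed 2 orders of genotype: AhR-d lay between the other genotypes for Sucnr1, Mrgprb1 and Ramp1 and with the control for Adgrg3. The comparisons share arrays, so they are given as separate values and not as repeats of each other. In AhR null against control, 3 of the 4 genes lay above the control arrays with no overlap and 1 lay below, where 16.9% and 17.4% of the 7449 features tested did so. In AhR-d against control 3 lay above and 0 below, beside 5.06% and 5.44% of all features, and in AhR null against AhR-d 3 lay above and 1 below, beside 11.1% and 12.4%. The genes were chosen on these same contrasts, so nothing is read from those counts.

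The size of the differences depended on how background was handled. The genotype with the lowest signal of each gene was near the array background. The AhR null minus control difference of Sucnr1 was 5.00 as reported, 4.32 with an offset of 50 in place of 16, 3.45 in the deposited log2 values, which keep the background, and 3.13 with no background correction. For Mrgprb1 the deposited values gave 1.90, for Ramp1 2.07 and for Adgrg3 -1.21. The AhR-d minus control differences in the deposited values were 1.38 for Sucnr1, 0.65 for Ramp1 and 0.41 for Mrgprb1. Every AhR null minus control difference of the 4 genes kept its sign under these settings and under median scaling, where it ranged from -2.50 for Adgrg3 to 5.38 for Sucnr1.

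**Figure D2:**
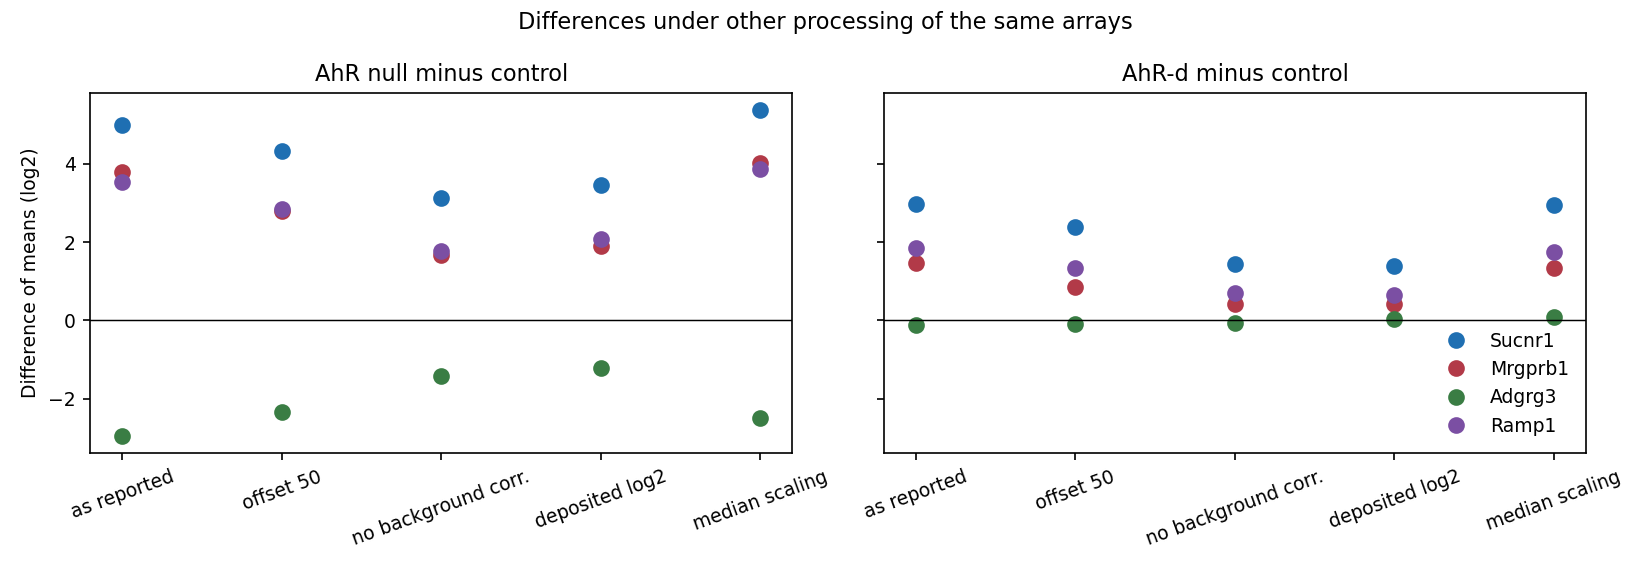
Difference of genotype means on the log2 scale for the 4 genes, AhR null minus control on the left and AhR-d minus control on the right, as reported and under 4 other treatments of the same arrays. Retaining the background shrinks the differences, Sucnr1 from 5.00 to 3.13 with no background correction, and Adgrg3 stays near 0 in AhR-d.

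The wider receptor machinery was read from lists of 261 other genes, of which 223 had a probe and 79 passed the filter and were tested. In AhR null against control, 4 of the 79 were higher, 9 were lower and 66 were not called (limma, Benjamini-Hochberg adjusted p under 0.05 over all 7449 features). This is 5.06% higher and 11.4% lower, beside 6.56% higher and 5.8% lower among all features; the median difference over the 79 was -0.07, and over all features -0.03. In AhR-d against control 0 of 79 were called by limma, with 9 at an unadjusted p under 0.05, where 0.282% of all features were called higher and 0.0537% lower. In AhR null against AhR-d, 1 was higher and 2 were lower, beside 0.819% and 1.66%. With batch as a block the calls among the 79 came to 26 in AhR null against control, 0 in AhR-d against control and 10 in AhR null against AhR-d.

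The direction of these calls moved with the scaling of the arrays. With the deposited values and with median scaling, 8 of the 79 genes were called higher and 1 lower in AhR null against control, in place of 4 and 9. Among all features the split was 831 higher and 90 lower in the deposited values and 837 and 86 with median scaling, against 489 and 432 as reported, and the median of all features stood at 0.29 and 0.53. Under both of these scalings 5 of the 13 genes were still called (Adgre5, Ccrl2, Cxcr4, Rgs9 and Slc13a2), and 8 were not. Gained calls were all rises: Ffar2, Grk6 and Mrgprb2 under both scalings, Cnr2 in the deposited values and Gnas with median scaling. None of the 13 changed sign in a setting in which it was tested, but Cxcr4 was not tested when any AhR null array was left out.

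Genes of succinate handling held 1 call among 12 tested, a rise. That is 8.33%, beside 6.56% of all features, a count too small to set against that share. Slc13a2, a sodium-coupled transporter that carries succinate and other dicarboxylates into cells, read 5.20, 5.59 and 5.70 in control, 6.07, 6.87 and 6.05 in AhR-d, and 7.38, 7.50 and 7.84 in AhR null. It was detected on 0 of 3 control, 2 of 3 AhR-d and 3 of 3 AhR null arrays, and the genotypes did not overlap. It rose at least 2.8-fold in AhR null against control (limma adjusted p = 0.000664), and its AhR null minus AhR-d difference of 1.24 ± 0.31 (SE) had an adjusted p of 0.0535. The other 11 genes of succinate production and use were not called in any of the 3 comparisons, with 4 of the 12 at an unadjusted p under 0.05 in AhR null against control.

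Other receptors for metabolites gave no call as reported. Of 13 with a probe besides Sucnr1, 2 were tested: Gpr65, a proton-sensing receptor, at 9.74 ± 0.36 in control and 9.54 ± 0.48 in AhR null (adjusted p = 0.684), and Ffar2, a receptor for short-chain fatty acids, at 7.98 ± 1.01 and 9.20 ± 0.69 (SD, n = 3; adjusted p = 0.107, limma). Ffar2 was called with batch as a block, in the deposited values, with median scaling and without control replicate 3. Oxgr1, the oxoglutarate receptor and a close relative of Sucnr1, was not detected on any array.

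Among P2Y, lysophospholipid and related receptors, 2 of 11 tested genes fell in AhR null cells and 0 rose. The falls are 18.2% beside 5.8% of all features, a count too small to set against that share. Lpar1, a lysophosphatidic acid receptor, read 8.08, 8.22 and 7.93 in control, 8.10, 6.65 and 7.98 in AhR-d, and 6.36, 6.26 and 6.56 in AhR null; the AhR null arrays lay below all others, with AhR-d replicate 2 nearest. Its difference from control was -1.68 ± 0.34 (SE, limma adjusted p = 0.00536), and -0.55 in the deposited values and -1.07 with median scaling, neither of them called. P2ry10, a lysophosphatidylserine receptor, has 3 probes, and the 1 that stood for it in the fit was detected on 4 arrays where another was detected on 5. By the probe used, it was detected on all control arrays and on no AhR null array and was at least 1.72-fold lower there (limma adjusted p = 0.034). That call was lost without control replicate 3, AhR null replicate 2 or AhR null replicate 3, with differences of -1.24, -1.21 and -1.09, and in the deposited values (-0.28), with median scaling (-0.92) and with no detection filter (-1.29).

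Of 5 adhesion receptors tested besides Adgrg3, 1 was called, and it rose. That is 20% beside 6.56% of all features, a count too small to set against that share. Adgre5, which encodes the leukocyte receptor CD97, read 10.80, 10.72 and 10.80 in control, 11.53, 11.15 and 11.17 in AhR-d, and 11.76, 11.36 and 11.71 in AhR null. Control lay below both other genotypes, which overlapped each other. The AhR null difference of 0.84 ± 0.16 (SE, limma adjusted p = 0.00458) was thus opposite in sign to that of Adgrg3. Adgrg1, beside Adgrg3 on chromosome 8, was not detected on any array, and Adgrg5, its other adhesion-receptor neighbour, has no probe under that name.

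Chemoattractant receptors changed in both directions under the reported normalisation, but their falls were not called with the deposited values or median scaling. Of 6 tested receptors for lipid mediators and other chemoattractants, 1 was called lower. That is 16.7% beside 5.8% of all features, a count too small to set against that share. Ltb4r1, the high-affinity leukotriene B4 receptor, fell by 1.17 on the log2 scale (SE 0.24, limma adjusted p = 0.00634), from 9.54 ± 0.54 in control to 8.37 ± 0.08 in AhR null (SD, n = 3). Of 4 chemokine receptors, 2 rose and 1 fell, counts too small to set against the 6.56% and 5.8% of all features. Cxcr4, the receptor for CXCL12, was undetected on all control arrays and read 6.70, 7.25 and 5.80 in AhR null, a rise of at least 1.41-fold (adjusted p = 0.0113). It was undetected on the AhR-d arrays too, so it passed the filter only through the AhR null arrays and was not tested when any of them was left out. Ccrl2, a non-signalling receptor that binds chemerin, averaged 6.00 ± 0.52 in control cells, 5.58 ± 0.17 in AhR-d cells and 7.24 ± 0.04 in AhR null. It was higher in AhR null than in control by 1.25 ± 0.31 (SE, adjusted p = 0.0187) and at least 2.32-fold higher than in AhR-d, where no array detected it (adjusted p = 0.011). Leaving out any 1 AhR null array ended both Ccrl2 calls, at 1.22 to 1.24 and 1.63 to 1.64, and so did leaving out control replicate 1 (1.06) or 3 (1.18) for the first. Cx3cr1, the fractalkine receptor and a gene of the monocyte list, read 9.49, 9.92 and 10.73 in control and 8.04, 8.23 and 9.05 in AhR null, a fall of 1.60 on the log2 scale (SE 0.35, adjusted p = 0.00816).

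Downstream of the receptors, the calls under the reported normalisation were 5 falls and 0 rises, a direction that did not hold under other scalings. Of 18 G protein subunit genes, 1 was called lower, or 5.56% beside 5.8% of all features. Gngt2, a gamma subunit gene, fell by 0.85 on the log2 scale (SE 0.19, limma adjusted p = 0.0113). Of 12 genes of RGS proteins, receptor kinases and arrestins, 4 fell, or 33.3% beside 5.8% of all features, and all of them encode RGS proteins, which speed GTP hydrolysis by G alpha subunits. With the deposited values or median scaling 1 of these 4, Rgs9, was called lower, and Grk6, a receptor kinase gene with a reported difference of 1.19 ± 0.38 (SE, limma adjusted p = 0.0552), was called higher. Gnas, the stimulatory G alpha gene, was called higher with median scaling and with batch as a block (0.80 ± 0.34 as reported). Rgs9 read 9.16, 9.07 and 9.23 in control, 8.72, 8.20 and 8.29 in AhR-d, and 7.07, 7.21 and 7.49 in AhR null. Its genotypes did not overlap, and AhR null differed from control by -1.90 (SE 0.22, limma adjusted p = 6.55e-05) and from AhR-d by -1.15 (adjusted p = 0.011). Rgs12 averaged 8.54 ± 0.48 in control cells, 8.10 ± 0.14 in AhR-d cells and 7.01 ± 0.06 in AhR null (SD, n = 3), and AhR null differed from control by -1.53 (SE 0.25, limma adjusted p = 0.00139) and from AhR-d by -1.10 (adjusted p = 0.0357). Rgs10 fell by 0.85 (SE 0.21, adjusted p = 0.0197) and Rgs19 by 1.10 (SE 0.28, adjusted p = 0.0212) against control. Plcb2, a phospholipase C that G proteins activate, was not called at -0.14 ± 0.20 (SE, adjusted p = 0.694), nor was either of the other 2 phospholipase C and adenylyl cyclase genes tested.

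Several of these calls rested on particular arrays or on the scaling. Against control, Gngt2 was no longer called without AhR null replicate 1 (-0.77), Rgs10 without control replicate 1 (-0.82), AhR null replicate 1 (-0.83) or 2 (-0.62), and Rgs19 without control replicate 3 (-0.72) or AhR null replicate 1 (-1.14) or 3 (-0.98). In the deposited values the differences of Gngt2, Rgs10, Rgs12, Rgs19, Ltb4r1 and Cx3cr1 were -0.24, -0.34, -0.57, -0.51, -0.46 and -0.82, and none was called. Rgs9 was called against control in all settings, at -0.86 in the deposited values, but its call against AhR-d was lost there (-0.44), with median scaling (-0.70) and without AhR null replicate 1 (-1.05) or 2 (-1.12). The Rgs12 call against AhR-d was lost when any 1 array of those genotypes was left out, at -1.17 to -1.01, and in the deposited values (-0.38), without background correction (-0.58) and with median scaling (-0.66).

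**Figure D3:**
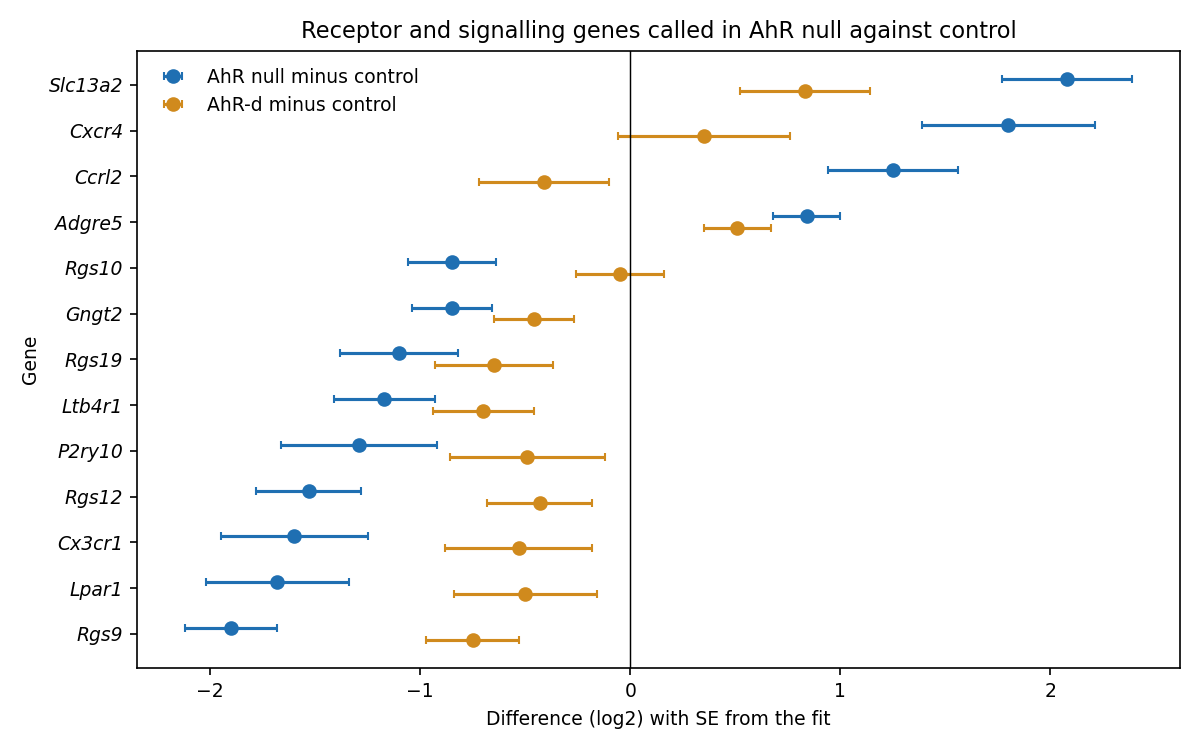
Log2 differences from control, with SE from the limma fit, of the 13 receptor and signalling genes called in AhR null cells, for AhR null and for AhR-d. Slc13a2, Cxcr4, Ccrl2 and Adgre5 lie above 0 and 9 genes lie below in AhR null; none of the 13 was called in AhR-d, and 8 of the 9 falls were not called with the deposited values or median scaling. Cxcr4 and Slc13a2 in control and P2ry10 in AhR null were not detected by the probe plotted, so their plotted sizes rest on background signal.

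The genes nearest to each receptor gene were found from log2 profiles centred on each gene's mean over the 9 arrays, by the root mean square difference in log2 units among 6863 other named genes. For Sucnr1 they were Sort1 (0.55), a sorting receptor of the secretory pathway; Ramp1 (0.66); Hsd11b1 (0.68), which regenerates active glucocorticoid; Aard (0.72); and Syn2 (0.77), a synaptic vesicle protein. The median over all genes was 2.11. Sort1 averaged 5.34 in control cells, 8.54 in AhR-d cells and 9.82 in AhR null, the same order of genotypes as Sucnr1.

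For Ramp1 the nearest genes were Aard (0.41), Hdc (0.44), Dlg3 (0.44), Apoe (0.45) and Ngfr (0.47), where the median over all genes was 1.54. Hdc makes histamine from histidine, Dlg3 is a scaffold of synaptic membranes, Apoe is a lipid carrier and Ngfr is a neurotrophin receptor. Hdc averaged 10.83, 12.14 and 13.66 in the order control, AhR-d and AhR null, and Ngfr 8.33, 9.65 and 10.82. For Mrgprb1 they were Cyria (0.60), Syn2 (0.67), Pdlim1 (0.71), Zfp326 (0.71) and Greb1 (0.72), with a median of 1.69. Cyria and Greb1 lie on chromosome 12, which also carries Ahr; none of the 4 receptor genes does.

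For Adgrg3 the nearest gene was closer than for any of the others, Nlrc3 at 0.18, an intracellular regulator of immune signalling. It was followed by Anpep (0.35), an aminopeptidase of myeloid cells, Tiam1 (0.43), an activator of Rac, Mdfic (0.43) and Ifitm1 (0.45), an interferon-induced membrane protein; the median over all genes was 1.46. Nlrc3 averaged 8.91 in control cells, 8.60 in AhR-d cells and 6.07 in AhR null. Among the 4 genes themselves, Sucnr1 and Ramp1 were 0.66 apart, Ramp1 and Mrgprb1 0.78, and Sucnr1 and Mrgprb1 0.90, while Adgrg3 was 2.82 to 3.34 from the others. All profiles share the same 9 arrays and their genotype steps, so nearness describes differences of similar direction and size over those arrays.

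**Figure D4:**
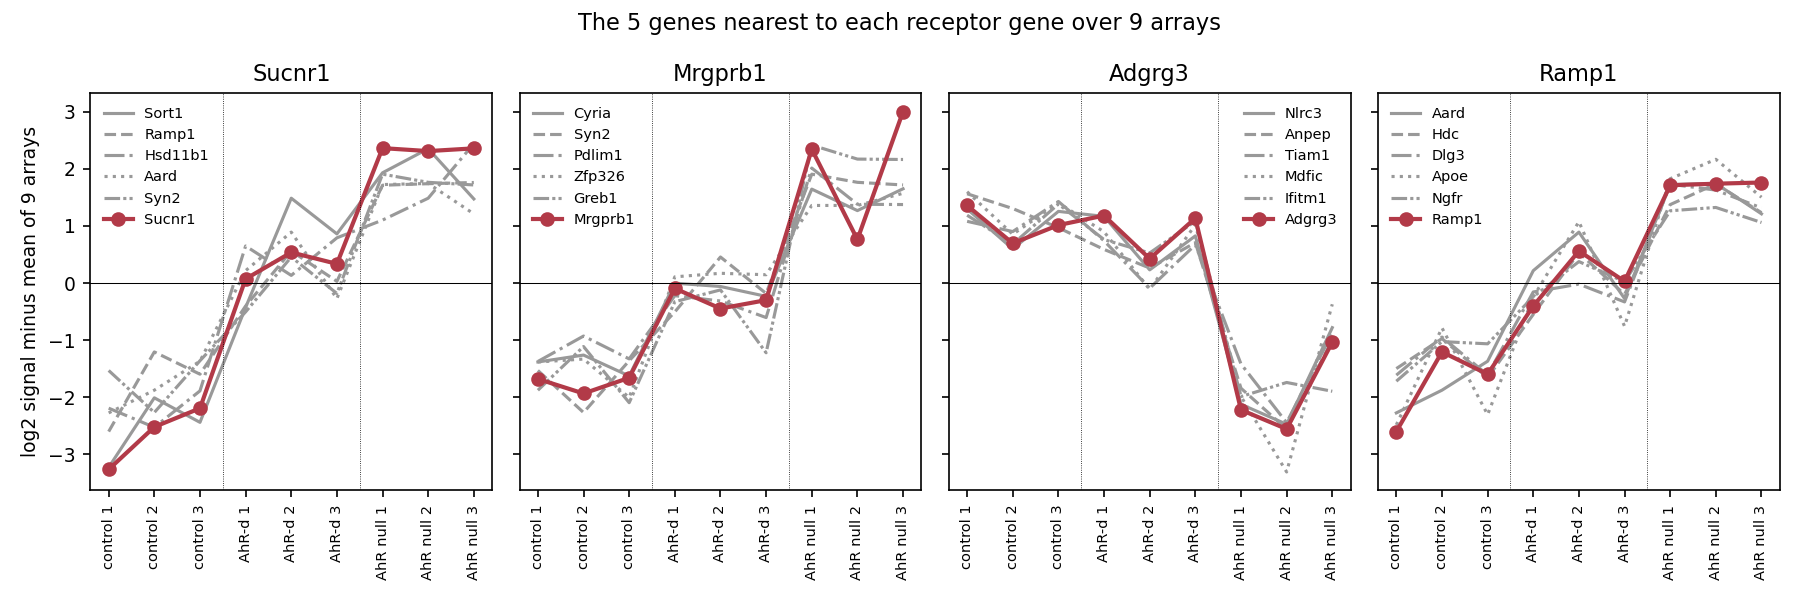
Log2 signal minus its mean over 9 arrays for each receptor gene (red) and its 5 nearest genes (grey), with arrays in the order control, AhR-d, AhR null along the axis. Ramp1 and its neighbours in profile lie 0.41 to 0.47 log2 units apart, and Nlrc3 and Adgrg3 are a root mean square of 0.18 apart, both highest among the AhR null arrays on replicate 3.

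Of the genes beside the 4 on their chromosomes, none of those tested was called in any comparison. Next to Sucnr1, Mbnl1 differed by 0.31 ± 0.19 (SE) between AhR null and control (limma adjusted p = 0.299) and P2ry1 by -0.28 ± 0.27 (adjusted p = 0.531). Aadac was not detected and Aadacl2 has no probe. Next to Ramp1, Scly differed by 0.15 ± 0.21 (adjusted p = 0.694), Ube2f by 0.00 ± 0.18 (adjusted p = 0.991) and Lrrfip1, detected on 3 arrays, by -0.64 ± 0.44 (adjusted p = 0.37), and Rbm44 was not detected. Of the neighbours of Mrgprb1, Mrgprb2 is described above, Mrgprb8 was not detected, and Mrgprb13 and Mrgprx2 have no probe. Drc7, beside Adgrg3, has no probe either.

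Markers of mast cells and of other cells that a marrow culture can hold were called mainly in AhR null against control. Fewer calls in AhR-d did not mean smaller differences in every list. In AhR-d against control, 7 of 8 neutrophil genes had an unadjusted p under 0.05 (limma), with a median difference of 1.59. In AhR null these were 6 of 8 and 1.65. Batch as a block called 3 of the 8 higher in AhR-d, and leaving out AhR-d replicate 1 called 5. Median differences in AhR-d and AhR null were 0.85 and 0.16 for the monocyte list, and 0.49 and 1.13 for megakaryocyte and erythroid genes. In the reported fit Hdc alone was called in AhR-d against control, and Hdc, Vwf and Runx1 in AhR null against AhR-d. The AhR-d call of Hdc was lost in the deposited values, with no background correction and with an offset of 50. A robust variance prior and a fit of only those genotypes lost it too. So did leaving out control replicate 1 or 3, AhR-d replicate 2 or 3 or any 1 AhR null array. Against AhR-d, Vwf and Runx1 were not called in the deposited values or when any 1 AhR-d array was left out. Of 13 mast cell genes tested, 4 were called higher in AhR null than in control and 0 lower (limma), or 30.8% beside 6.56% of all features. They were Mcpt4, a connective-tissue-type mast cell protease gene, with the largest difference at 3.33 ± 0.94 (SE, limma adjusted p = 0.0336), and Hdc, Tpsab1 and Slc18a2, which serve histamine synthesis, tryptase and amine storage. The Mcpt4 call was lost when any 1 control array or AhR null replicate 1 was left out, with no background correction and with a robust variance prior. Tpsab1 was not called without AhR null replicate 1 or with the robust prior. Hdc and Slc18a2 were called in AhR null against control in every setting. Summed linear signal of 14 mast cell genes was 196410 to 219067 in control, 206953 to 219145 in AhR-d and 208446 to 230882 in AhR null arrays, sums that a few very bright genes such as Fcer1a make up.

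Several lists of other cell types had higher signal in AhR null than in control arrays. Sums of 14 neutrophil genes were 581 to 783 in control, 436 to 5724 in AhR-d and 1411 to 2316 in AhR null, with Ngp, Camp, Retnlg and Mmp8 undetected on all 9 arrays. Of 8 tested, 3 were called higher (37.5%, beside 6.56% of all features) and 1 lower (12.5%, beside 5.8%). None of these rises was called without control replicate 1 or 3 or when any 1 AhR null array was left out, and with a robust variance prior only that of Prtn3 was. S100a8, with the largest difference, was undetected on the control arrays and AhR-d replicate 1, read 11.27 and 11.63 on the other AhR-d arrays and 9.05 to 9.89 in AhR null. For 10 monocyte and macrophage genes the sums were 1213 to 2796, 1895 to 7437 and 2187 to 3992 in the same order, with C1qa, C1qc and Ccr2 undetected throughout. Of 5 tested, 2 were called higher (40%, beside 6.56% of all features) and 1 lower (20%, beside 5.8%), counts too small to set against those shares. Apoe rose by 3.69 ± 0.48 (SE, limma adjusted p = 0.000204), and it was the only rise called when any 1 AhR null array was left out.

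For 11 megakaryocyte and erythroid genes the sums were 3743 to 5340, 3739 to 5821 and 4693 to 8249, with Ppbp and Gp1bb undetected throughout. Of 9 tested, 4 were called higher in AhR null than in control (44.4%, beside 6.56% of all features) and 1 lower (11.1%, beside 5.8%). The largest difference was that of the globin gene Hbb-bt, 3.95 ± 0.71 (SE, limma adjusted p = 0.0025), the only rise called without AhR null replicate 1 or without AhR null replicate 2. For 5 basophil genes the sums were 10670 to 11530, 9472 to 14300 and 12292 to 14261, with Itga2 undetected. Of 4 tested, 1 was called higher (25%, beside 6.56% of all features), a count too small to set against that share. It was the protease gene Prss34, higher by 2.94 ± 0.52 (SE, limma adjusted p = 0.00239). Sums of 4 eosinophil genes were 121 to 132, 137 to 1766 and 175 to 324, with Siglecf undetected, and the 1 gene tested was not called. Control and AhR null sums did not overlap for the neutrophil, basophil and eosinophil lists, higher in AhR null, and for the progenitor list below, lower in AhR null. Among single features 16.9% lay above and 17.4% below control without overlap. In control cells 1 of the 14 neutrophil and 0 of the 4 eosinophil genes were detected, so those control sums hold mainly background signal.

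Sums of 8 progenitor genes were 4105 to 5496 in control, 3608 to 5540 in AhR-d and 2943 to 3461 in AhR null, with Flt3, Hoxa9 and Sox4 undetected. Of 5 tested, 2 were called lower (40%, beside 5.8% of all features), a count too small to set against that share. Neither was called with the deposited values or median scaling. The rises called in the mast cell, neutrophil, monocyte, basophil, megakaryocyte and erythroid lists were called under both of those scalings as well. Of the falls in these lists, that of the megakaryocyte gene Vwf was called under both, and those of the neutrophil gene Ctsg and of Cx3cr1 under neither. Both scalings moved the median of all features up in AhR null, to 0.29 and 0.53. That shift by itself favours rises over falls, so the kept rises are no support for the calls. With no background correction the rises of Mcpt4, Chil3, S100a8 and Lyz2 were not called. The part that any of these cells play in the differences of the 4 receptor genes was not tested in any of the comparisons.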

How the data were processed

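RNA of 9 mast cell cultures, 3 per genotype, was hybridised to Illumina mouse Ref-8 beadchips. The deposited probe table holds linear signal intensity, not scaled between arrays, exported from GenomeStudio per the submitters' processing notes (no version given). Per the file headers, a detection p-value follows each intensity. The authors' deposited log2 values equalled log2 of the intensity plus 1 constant per array (0.231 to 0.928) that set each array's median at 8, within 5.11e-05. They were used as an alternative.

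From the intensities, background was removed by a normexp model (offset 16), followed by quantile normalisation and log2 (neqc in limma 3.58.1, R 4.3.3). Probes with a detection p-value under 0.01 on at least 3 arrays were kept (9777), and the probe with the highest mean stood for a gene in fits, giving 7449 features, 6864 of them named genes and 585 unnamed probes. Of the probes, 23978 had 1 symbol and 1719 none in the platform annotation; RefSeq (GRCm38.p6) matched 23962 by Entrez ID and changed 0 symbols. One fit with a mean per genotype, a trended moderated variance and 6 residual degrees of freedom gave all adjusted p-values (Benjamini-Hochberg over all features). The script was tested on simulated data. A gene undetected on all arrays of a genotype has only a bound there, given as at least N-fold. The number of arrays limits the precision of every value.

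The receptor genes, the gene lists and the rules were chosen with earlier results of these data known. The genes named were the 4 receptor genes, up to 4 called genes per list and comparison or otherwise the brightest tested one, the 5 nearest profiles, close relatives, chromosome neighbours and the marker with the largest difference in a list. Ffar2, Grk6, Gnas, Cnr2 and the other called marker genes named were added after their values were seen. Labels state shared batches, and all 9 pairs of same-batch arrays correlated in their deviations from genotype means (0.111 to 0.361; 18 other pairs, -0.361 to 0.068), so batch was also fitted as a block. Alternatives were the deposited values, median scaling, no background correction, an offset of 50, other detection filters, fits of only the genotypes compared, a robust variance prior and leaving out each array.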

Additional observations from a re-analysis of the deposited data

How the results depend on the processing

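No result changed sign where it was called or larger than its spread, but several changed in size. For Sucnr1, Mrgprb1, Adgrg3 and Ramp1 in that order, the AhR null minus control differences were 3.45, 1.90, -1.21 and 2.07 (log2) in the deposited values and 3.13, 1.68, -1.42 and 1.78 without background correction. With an offset of 50 those of Sucnr1, Mrgprb1 and Ramp1 were 4.32, 2.80 and 2.84. For Sucnr1, Mrgprb1 and Ramp1 the AhR-d minus control differences were 1.38, 0.41 and 0.65 in the deposited values and 1.43, 0.43 and 0.70 without background correction, and 2.38 (Sucnr1) and 0.86 (Mrgprb1) with an offset of 50. The AhR null minus AhR-d differences were 1.69, 1.25, -1.35 and 1.08 without background correction, 1.49 (Mrgprb1) and -1.24 (Adgrg3) in the deposited values, and 2.44 (Sucnr1) and 2.11 (Ramp1) with median scaling. The deposited values and the uncorrected ones keep the background signal, which by construction shrinks ratios of dim probes; the cause of the other shifts was not tested. Leaving out 1 array gave AhR null minus control differences of 4.71 to 5.27 (Sucnr1), 3.30 to 4.37 (Mrgprb1), -3.40 to -2.63 (Adgrg3) and 3.15 to 3.83 (Ramp1). The features called in AhR-d against control, 25 of 7449, numbered 9 in the deposited values, 7 without background correction, 41 with median scaling, 10 when only those genotypes were fitted and 4 to 46 with 1 array left out (lowest when AhR-d replicate 2 was dropped and highest when AhR-d replicate 1 was). In AhR null against control they numbered 921, and 492 to 1001 with 1 array left out, lowest without AhR null replicate 2; in AhR null against AhR-d they numbered 185, with 123 under median scaling and 82 to 243 with 1 array left out, lowest without AhR null replicate 1. The batch as a replicate block raised these counts to 118, 1580 and 502 in the order given; with each batch holding every genotype, it left the differences themselves as they were. Among the 79 other receptor and pathway genes the paired fit with the replicate block called 26 in place of 13 in AhR null against control and 10 in place of 3 in AhR null against AhR-d. Without 1 array the calls were 8 to 15 in the first, lowest without AhR null replicate 1, and 0 to 4 in the second, 0 without AhR null replicate 1 or 2; in AhR-d against control the count was 0 in every setting. Signals near background limit Sucnr1 and Ramp1 in control, Mrgprb1 in control and Adgrg3 in AhR null.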
